A study of Mus musculus with 16 samples.

Results

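The early response of the left ventricle was read from the 8 libraries taken at 0h and at 3h after an abdominal operation, out of 16 libraries in the series. The members of the comparison were the 4 libraries labelled 0h and the 4 labelled 3h, chosen by the time in the sample title, and the test ran over the 16866 genes with a mean of at least 0.5 TPM (a share of all transcripts, corrected for gene length and depth) over all 16 libraries, of 57143 genes in the table. All animals were male C57BL/6 mice, the tissue was left ventricle, and both groups carry the label of surgery under sevoflurane, a gas anaesthetic, so that no group without surgery or anaesthesia enters the comparison. The labels give no clock time of sampling, so time after surgery and time of day cannot be told apart. Whether the 4 libraries of a time are 4 different animals is not in the labels either, and the p-values measure the spread between these samples, which may be technical.

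Total counts ran from 8.31 to 12.6 M (mega) per library at 0h and from 9.06 to 9.66 M at 3h. Pairs of libraries were correlated over genes, which are no replicates: Pearson's r on log2 CPM ran from 0.982 to 0.987 between libraries of the same time and from 0.974 to 0.980 between 0h and 3h. Markers of ventricular cardiomyocytes were high in every library: Myl2, the ventricular myosin light chain, measured at least 16450.4 TPM and Tnni3, cardiac troponin I, at least 6921 TPM. They did not all keep their level. Myh6 ran from 7445.6 to 8802.3 TPM at 0h and from 5520.8 to 7429.5 TPM at 3h. Ryr2 ran from 146.3 to 162.8 TPM and from 69.8 to 130.5 TPM, also lower without overlap. Tnni3 was higher at 3h without overlap, and Myl2, Myl3 and Tnnt2 overlapped between the groups. Markers of lung were listed at 0 in all 8 libraries. Myl7, a myosin light chain of the atria, measured at most 9.59 TPM in 7 of the 8 libraries and 146 TPM in 3h replicate 3. The summed level of 22 hepatocyte genes ran from 50.4 to 80.6 TPM at 0h and measured 58.3, 241, 231 and 101 TPM in 3h replicates 1 to 4. That of 23 neutrophil genes ran from 437 to 481 TPM at 0h and measured 1227, 760, 691 and 675 TPM in those replicates. In bulk tissue, fewer cells of a type and less RNA per cell cannot be told apart.

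**Figure D1:**
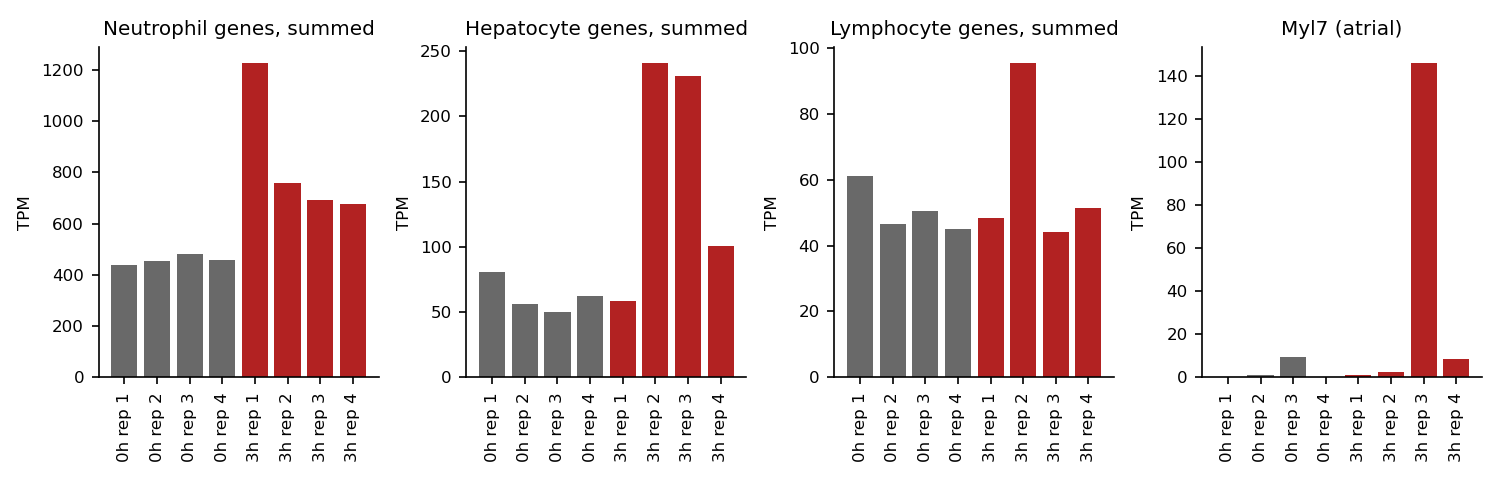
Each bar is 1 library (grey, 0h; red, 3h), and the vertical axes give TPM, summed over the tested members of the neutrophil, hepatocyte and lymphocyte lists or for the atrial gene Myl7 alone. All 4 libraries at 3h lie above all 4 at 0h for neutrophil genes, 3h replicates 2 and 3 hold the most hepatocyte transcripts, and 3h replicate 3 holds 146 TPM of Myl7.

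In the hours after tissue injury, cells sense cytokines through receptors that act on JAK kinases and STAT transcription factors, and the same pathway switches on its own inhibitors, the SOCS proteins. Stress steroids act in parallel through the glucocorticoid receptor, a transcription factor that is present in cardiomyocytes and in the cells of the vessel wall. The ventricle is also dense in capillaries, whose endothelial cells depend on signals from VEGF, Notch and BMP receptors for their identity. Many messengers of transcription factors and signalling proteins are short-lived, so their levels can move within hours.

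Of the 16866 genes tested, 895 (5.31%) changed between 0h and 3h by edgeR's quasi-likelihood test at a Benjamini-Hochberg adjusted p under 0.05. Higher at 3h were 339 genes (2.01%) and lower were 556 (3.3%). The median log2 fold change, 3h minus 0h, was 0.86 among the genes called higher and -0.64 among those called lower. Counts scaled by TMM gave these values. By limma on log2(TPM + 1) the median gene stood at -0.15, so a ratio of the printed TPM is lower than the fitted fold change by about that amount. Of the genes called higher, 303 were protein coding, and of those called lower, 531. Without 0h replicate 1 the test called 298 genes, without 3h replicate 1 it called 329 and without 3h replicate 4 it called 347. With Myl7 as a covariate it called 184 genes (1.09%), 82 higher (0.486%) and 102 lower (0.605%). Without 3h replicates 2 and 3, the libraries with most hepatocyte transcripts, it called 336 (1.99%), 131 higher (0.777%) and 205 lower (1.22%). For 96 of the 339 and 126 of the 556 genes the call held in each of the 8 fits that left out 1 library. In what follows, a gene given without such a remark kept its call in all 8 of these fits. The TPM of the 2 groups did not overlap for 4048 of the 16866 genes (24.0%), for 253 of the 339 and for 548 of the 556. Lack of overlap was part of the rule for naming many of the genes below, so it adds no support to their calls.

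**Figure D2:**
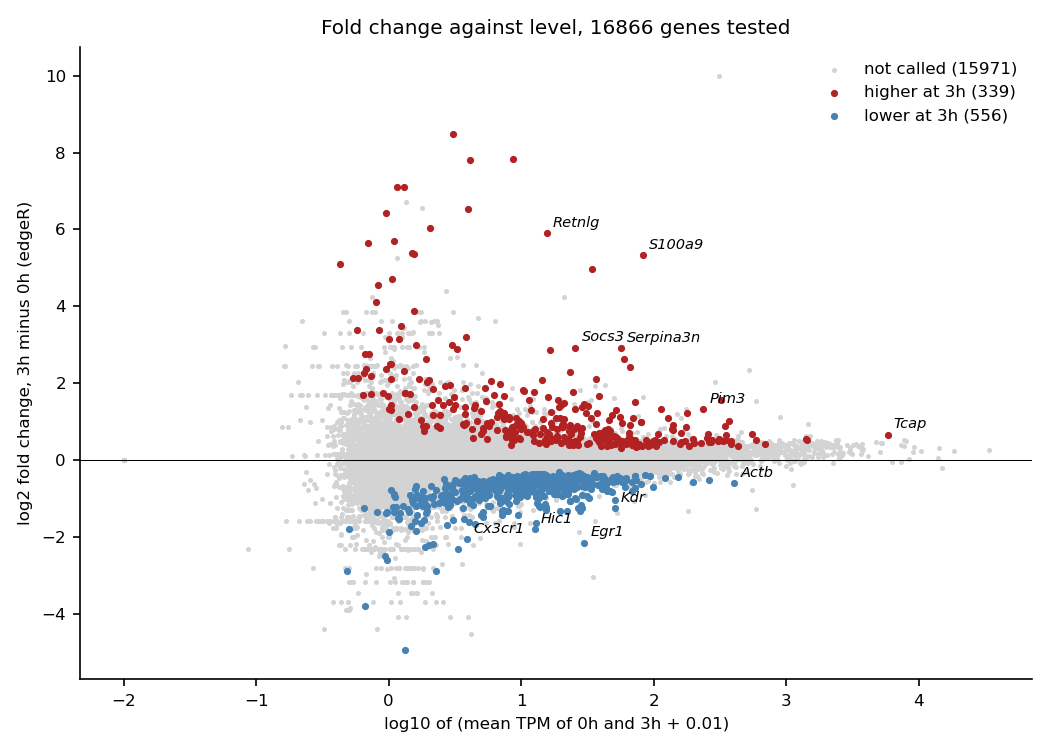
Each point is a gene, with its level on a log10 axis (mean TPM of the 0h and 3h libraries) and its log2 fold change, 3h minus 0h, on the vertical axis. Red marks the 339 genes called higher and blue the 556 called lower, and grey marks genes not called.

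Genes called lower were long and genes called higher short. The median gene length in the table was 7729 bases for the genes called lower, 2766 for those called higher and 3545 for all genes tested. Among the longest quintile of genes, of 6733 bases or more, 319 were called lower and 25 higher. In the shortest quintile, of 1367 bases or fewer, 5 were called lower and 58 higher. The median log2 fold change fell from 0.21 in the shortest quintile to -0.17 in the longest quintile. When a smooth trend on length was removed from each library, 604 genes were called (3.58%), 305 higher (1.81%) and 299 lower (1.77%), and the longest quintile held 94 called lower and 83 higher. Of the 895 genes, 228 of those higher and 278 of those lower kept their call in that fit. Length moved with the direction of change here, and its part in the result was not tested beyond that fit.

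**Figure D3:**
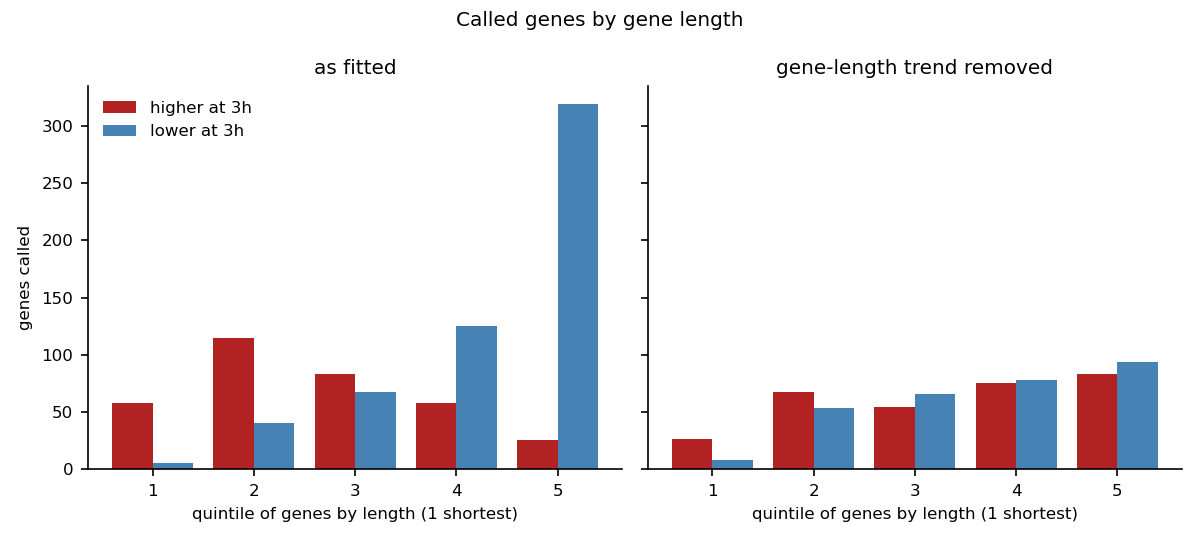
The bars count genes called higher (red) or lower (blue) at 3h in quintiles of the tested genes by length, as fitted on the left and with the length trend removed on the right. As fitted, the blue bars climb from 5 genes in the shortest quintile to 319 in the longest, and on the right the counts of the longest quintile are 94 lower and 83 higher.

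Several receptors through which cytokines act rose, and none of the ligands tested was called. Of 38 cytokines and receptors tested, 8 were higher (21% of the list, against 2.01% of all genes) and 0 lower, and all 8 encode receptor chains. Il4ra, the alpha chain of the interleukin 4 and interleukin 13 receptors, measured 14.9, 11.2, 14.6 and 8.93 TPM in the 4 libraries at 0h and 42.9, 36.7, 37.5 and 31.5 TPM in those at 3h. The lowest library at 3h was more than double the highest at 0h (log2 fold change 1.78 with an SE of 0.21, adjusted p = 0.000459). Il17ra, the receptor chain for interleukin 17, measured 3.02, 1.83, 2.57 and 1.67 TPM at 0h and 5.86, 6.32, 4.38 and 4.46 TPM at 3h, without overlap (log2 fold change 1.39 with an SE of 0.24, adjusted p = 0.00304). Il1r1, the signalling receptor for interleukin 1, measured 10.7 to 18.7 TPM at 0h and 17.8 to 25.8 TPM at 3h, with 0h replicate 1 above 3h replicate 4 (log2 fold change 0.81 with an SE of 0.17, adjusted p = 0.00971). Il1r2, the decoy receptor that binds interleukin 1 without signalling, measured 0, 0, 0.198 and 0.689 TPM at 0h and 4.99, 2.02, 2.56 and 1.78 TPM at 3h, higher in each of the 4 (adjusted p = 0.0041). Chains of the receptors for colony-stimulating factors were also higher. Csf2rb had a fitted log2 fold change of 1.03 (adjusted p = 0.0109, and 0.0529 without 3h replicate 1) and Csf3r one of 1.43 (adjusted p = 0.0161, and up to 0.0851 without 0h replicate 1, 2 or 3 or 3h replicate 1). Il1r1 was not called by limma on log2(TPM + 1) (adjusted p = 0.0707). Il1r1 and Csf2rb were not called with Myl7 as a covariate (adjusted p = 0.0587 for each) or without 3h replicates 2 and 3 (0.0756 and 0.0637). The list median was 0.15, against 0.004 over all genes, and it turned to -0.03 under other scalings, so the calls concern single receptors. The higher count was 4 with Myl7 as a covariate, without 3h replicates 2 and 3 or without 3h replicate 1, and 5 without 0h replicate 2. With the filter at a mean of 2 TPM, 6 of 29 tested were higher. Members near 0 at 0h, such as Il1r2, can pass the filter on mean level through the libraries in which they are high. Csf3r is also a neutrophil marker, and the part of neutrophil RNA in these calls was not tested.

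Some genes from a list of the JAK-STAT pathway and its feedback genes rose, the inhibitors Socs3 and Socs2 among them. Of 27 genes in that list, 6 were higher (22.2%) and 0 lower. Socs3, which binds and blocks JAK kinases and their receptors, measured 7.25, 7.16, 7.70 and 5.002 TPM at 0h and 70.8, 41.3, 30.3 and 35.7 TPM at 3h. Every library at 3h lay well above the highest at 0h, and 3h replicate 1 was highest (log2 fold change 2.92 with an SE of 0.46, adjusted p = 0.00475). Bcl3, which binds NF-kappa-B subunits in the nucleus, measured 5.18 to 6.55 TPM at 0h and 33.9, 25.2, 16.8 and 14.5 TPM at 3h, again highest in replicate 1 (log2 fold change 2.07 with an SE of 0.34, adjusted p = 0.00369). Pim3, a survival kinase, rose from 175, 131, 185 and 103 TPM to 291, 341, 357 and 312 TPM (log2 fold change 1.32 with an SE of 0.22, adjusted p = 0.00391). Cebpd, a transcription factor of the acute-phase response, rose from 30.0, 23.4, 25.8 and 13.9 TPM to 132, 109, 99.1 and 97.9 TPM (log2 fold change 2.43 with an SE of 0.44, adjusted p = 0.0102). For Pim3 and Cebpd too, no library at 0h reached the lowest at 3h. Cebpb, another factor of that family, had a fitted log2 fold change of 1.21 (adjusted p = 0.0311, and up to 0.1 in the 7 fits without 1 library that lost the call), and Socs2 one of 0.50 (adjusted p = 0.0321, and up to 0.148 in 5 such fits). The list median, 0.04, lay between -0.13 and 0.17 under the other scalings. The higher count was 4 with Myl7 as a covariate or without 3h replicates 2 and 3, and 4 to 6 without 1 library.

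Sbno2, a corepressor-like protein of the helicase family that is induced by interleukin 10 in macrophages, had the smallest p-value of the genes called higher. It measured 6.19, 6.25, 7.53 and 5.86 TPM at 0h and 21.0, 17.9, 15.8 and 11.9 TPM at 3h, without overlap (log2 fold change 1.56 with an SE of 0.17, adjusted p = 9.26e-05). Fosl2, a partner of Jun proteins in the AP-1 transcription factor, rose from 11.5, 9.52, 11.2 and 8.93 TPM to 22.2, 21.0, 17.8 and 14.3 TPM, with all 4 libraries at 3h above those at 0h (log2 fold change 1.06 with an SE of 0.16, adjusted p = 0.00133). Fam110d, a member of a family of centrosomal proteins, rose from 15.9, 14.5, 16.9 and 13.9 TPM to 79.6, 64.4, 45.3 and 41.2 TPM (log2 fold change 2.11 with an SE of 0.29, adjusted p = 0.00133), and 3h replicates 1 and 2 were highest. Rasl10a, a RAS-like GTPase, measured 3.002, 5.26, 6.94 and 6.05 TPM at 0h and 15.7, 14.8, 16.01 and 16.9 TPM at 3h, with little spread at 3h (log2 fold change 1.80 with an SE of 0.28, adjusted p = 0.00133). Abhd1, a hydrolase-fold protein, rose from 7.17 to 10.9 TPM to 19.2 to 28.8 TPM (log2 fold change 1.64 with an SE of 0.25, adjusted p = 0.00133). These 5 calls held with Myl7 as a covariate and without 3h replicates 2 and 3.

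**Figure D4:**
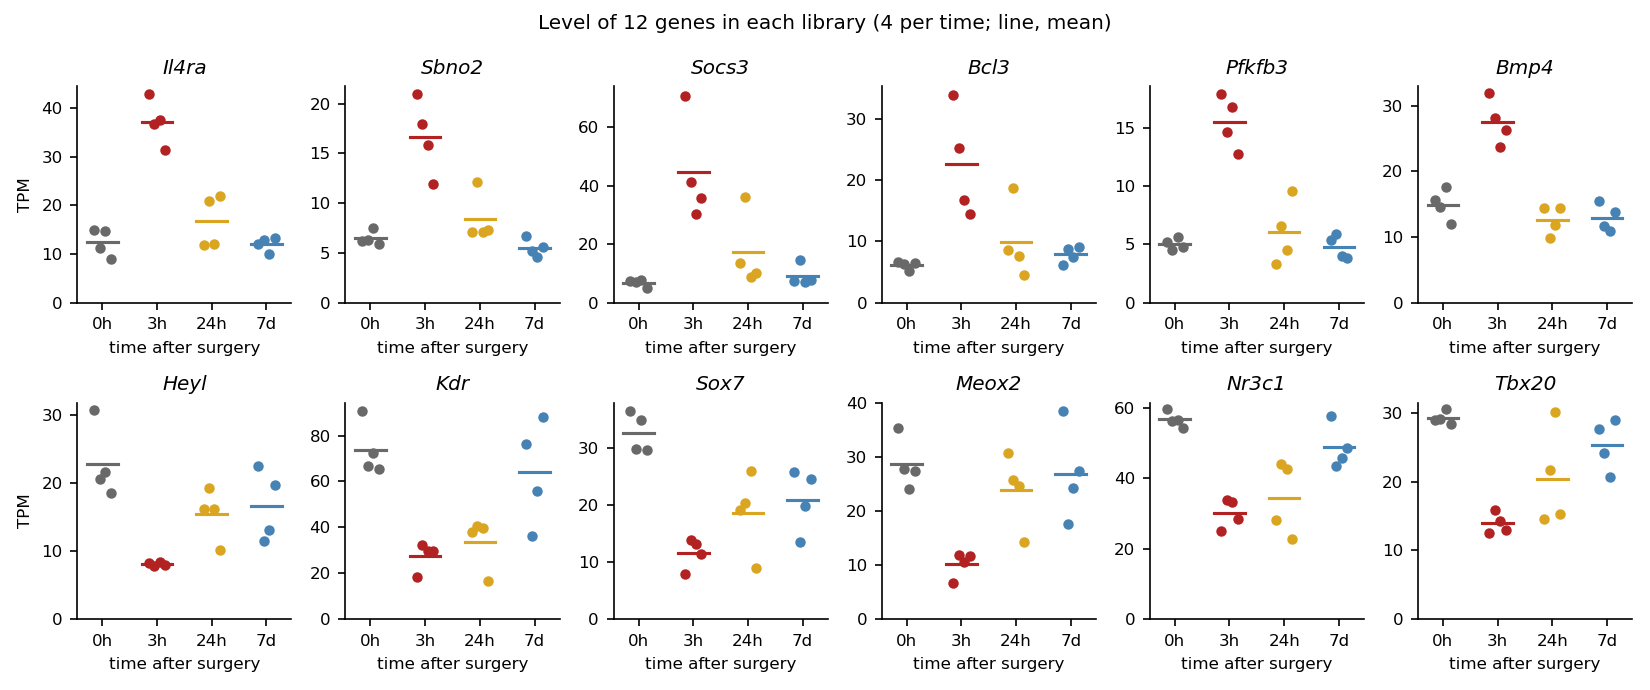
Each panel gives the TPM of 1 gene in each library at 0h, 3h, 24h and 7d (points; the line is the mean of 4). The upper row holds genes called higher at 3h and the lower row genes called lower. In all 12 panels the libraries at 3h do not overlap those at 0h. Lack of overlap was part of the rule that named the genes of smallest p, largest fold and largest TPM difference.

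The start sites of 2 of these genes are shown because they carry a match to the sequence that STAT dimers bind. Sequences are from RefSeq (GRCm38.p6), run 5′ to 3′ on the gene's strand from 250 bases before the start site to 50 after it, and capitals mark the match. The STAT element searched was TTCNNNGAA on either strand. Socs3 lies on the minus strand of chromosome 11, and its window is chr11:117969317-117969616. Sbno2 lies on the minus strand of chromosome 10, and the window shown, of 3 annotated start sites, is chr10:80101138-80101437.
Socs3: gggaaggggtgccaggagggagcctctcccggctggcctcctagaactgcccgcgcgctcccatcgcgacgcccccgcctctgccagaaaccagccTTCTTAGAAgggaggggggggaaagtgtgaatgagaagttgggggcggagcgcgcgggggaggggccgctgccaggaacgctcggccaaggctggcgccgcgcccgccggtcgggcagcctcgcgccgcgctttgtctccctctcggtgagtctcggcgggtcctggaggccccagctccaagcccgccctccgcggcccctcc
Sbno2: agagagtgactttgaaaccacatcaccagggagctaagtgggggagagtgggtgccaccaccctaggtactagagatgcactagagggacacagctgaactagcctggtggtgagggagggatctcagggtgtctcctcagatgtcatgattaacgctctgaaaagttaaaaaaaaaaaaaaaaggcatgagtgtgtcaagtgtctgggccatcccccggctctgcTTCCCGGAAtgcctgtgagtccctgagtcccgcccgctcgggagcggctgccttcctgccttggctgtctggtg
The match TTCTTAGAA begins at position -154 from the Socs3 start site, and TTCCCGGAA at position -24 from the Sbno2 start site shown. Of the other Sbno2 windows, chr10:80102653-80102952 also holds a match (TTCGCAGAA, at position -26) and chr10:80075390-80075689 holds none. Such a match is common: 8.25% of the 10895 tested genes with a promoter in the RefSeq table held one, against 25 of the 254 genes called higher (9.84%) and 29 of the 392 called lower (7.4%). A match of letters is a description and not a bound site.

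Some secreted proteins of the acute phase rose in the ventricle. Of 19 tested, 6 were higher (31.6%) and 0 lower, with a list median of 1.09 (0.29 to 1.11 under other scalings, lowest by limma on log2(TPM + 1)). Serpina3n, an inhibitor of granule proteases, measured 18.4, 11.4, 20.6 and 8.92 TPM at 0h and 106, 112, 90.5 and 82.9 TPM at 3h, without overlap (log2 fold change 2.91 with an SE of 0.32, adjusted p = 0.000848). Lrg1, a leucine-rich glycoprotein that modifies TGF-beta signalling in vessels, measured 90.9, 92.8, 93.5 and 84.5 TPM at 0h and 178, 161, 175 and 160.2 TPM at 3h. The 4 libraries of each time lay close together (log2 fold change 1.09 with an SE of 0.22, adjusted p = 0.0109). Lcn2, an iron-sequestering protein, rose from 2.19, 2.71, 6.04 and 1.88 TPM to 10.9, 11.9, 12.2 and 7.78 TPM (adjusted p = 0.043), a call lost in 7 of the fits without 1 library (up to 0.138). With the filter at a mean of 2 TPM, 3 of 12 tested were higher and the median was 0.5, so low genes raised the median. Leaving out 1 library left 2 or 3 of the 19 higher, removing the length trend left 3, and with the Myl7 covariate 1 was. Without 3h replicates 2 and 3, 3 of the 19 were higher, and Serpina3n (adjusted p = 0.0112) and Lrg1 (0.0462) were among them. With Myl7 as a covariate Serpina3n was called (0.00364) and Lrg1 was not (0.0596). Hepatocyte transcripts were higher in some of these libraries: of 22 in that list, 9 were higher (40.9%, against 2.01% of all genes) and 0 lower. The median log2 fold change was 4.38 (1.37 to 4.4 under other scalings), or 3.44 with 7 genes counted as 0 at 0h set at their bound against 3 counts. Genes near 0 at 0h pass the filter on mean level through the libraries in which they are high. Without 3h replicates 2 and 3, 2 of the 22 were called. The summed hepatocyte level at 3h was 58.3, 241, 231 and 101 TPM, and that of the acute-phase list was 445, 465, 487 and 403 TPM in the same order. The part of hepatocyte RNA in these results was not tested.

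The promoter of Serpina3n is shown because it holds a match to the glucocorticoid element (GNACA and TGTNC, 3 bases apart, on either strand, in capitals), on the plus strand of chromosome 12 at chr12:104406458-104406757.
Serpina3n: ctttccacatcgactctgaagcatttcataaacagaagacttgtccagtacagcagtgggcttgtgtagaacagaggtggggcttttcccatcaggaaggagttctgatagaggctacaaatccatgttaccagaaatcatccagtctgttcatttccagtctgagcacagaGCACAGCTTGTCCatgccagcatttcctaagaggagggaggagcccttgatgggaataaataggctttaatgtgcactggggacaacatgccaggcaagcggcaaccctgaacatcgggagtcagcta
This element was rare in the windows, with a match in 49 of the 10895 genes (0.45%), in 6 of the 254 genes called higher (2.36%) and in 0 of the 392 called lower. The 6 matches, each with 8 bases on either side and read on the gene's strand, are listed to show how their letters vary.
Slc10a6: cttccctaGAACACGATGTGCcactgtcg
Tinagl1: acagtcgcGTACACATTGTCCttaagccg
Fkbp7: aaacctgcGGACAGGGTGTGCggtgctat
Cisd3: accggagtGCACAGAATGTGCggtgcagg
Serpina3c: agcacagaGCACAGCTTGTCCatgccagc
Serpina3n: agcacagaGCACAGCTTGTCCatgccagc
The windows of Serpina3c and Serpina3n are identical over these bases, and the 2 genes are close copies on chromosome 12, so reads may be shared between them. The other 5 genes were named for the match, after their values were seen. Slc10a6, a carrier of steroid sulphates, measured 9.63, 8.37, 12.96 and 4.33 TPM at 0h and 42.9, 38.8, 39.2 and 30.4 TPM at 3h, without overlap (log2 fold change 2.30, adjusted p = 0.0174, and up to 0.0643 in 3 fits without 1 library). The fold changes of the other 4 ran from 0.46 on the log2 scale for Cisd3 to 1.44 for Serpina3c (adjusted p = 0.0346 and 0.0475), with Fkbp7 at 0.49 (0.0361) and Tinagl1 at 0.61 (0.0142). Leaving out 1 library ended these calls in 5, 7, 6 and 1 of the 8 fits, with adjusted p up to 0.146, 0.195, 0.138 and 0.0662. With Myl7 as a covariate none of the 5 was called (0.0699 to 0.119).

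Several genes that respond to glucocorticoids rose. Of 30 tested, 7 were higher (23.3%) and 1 lower, and the list median was 1.16 (1.01 to 1.18 under other scalings). The summed level of the list ran from 2037 to 3999 TPM at 0h and from 5299 to 6412 TPM at 3h, so the groups did not overlap. Gadd45g, which couples stress to arrest of the cell cycle, measured 22.8, 23.4, 19.9 and 15.7 TPM at 0h and 70.5, 49.4, 61.8 and 45.9 TPM at 3h, without overlap (log2 fold change 1.66 with an SE of 0.31, adjusted p = 0.00652). Tgm2, a transglutaminase, had a fitted log2 fold change of 0.54 (adjusted p = 0.0132, and 0.0648 without 0h replicate 1). Arrdc2, an arrestin-related protein, measured 9.46 to 30.2 TPM at 0h and 82.1 to 112 TPM at 3h, a call (adjusted p = 0.0365) that was lost in all 8 fits without 1 library (up to 0.113). The member that fell was the receptor itself. Nr3c1, the glucocorticoid receptor, measured 59.7, 56.2, 56.6 and 54.2 TPM at 0h and 24.9, 33.7, 33.2 and 28.5 TPM at 3h. The 2 groups lay far apart with little spread in either (log2 fold change -0.74 with an SE of 0.12, adjusted p = 0.00203). The higher count was 2 to 5 without 1 library, 2 with Myl7 as a covariate, and 4 with the length trend removed or with a replicate block. Without 3h replicates 2 and 3, 2 of the 30 were higher and 1 was lower, the latter being Nr3c1 (adjusted p = 0.0159).

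Immediate early genes, whose transcription starts within minutes of a stimulus, went both ways, with 4 higher and 4 lower of 27 (14.8% each, against 2.01% and 3.3% of all genes). Besides Fosl2, the higher members were Csrnp1, Myc and Zfp36 (adjusted p = 0.0397, 0.0445 and 0.0496), the last 2 named after their values were seen. The higher count was 1, Fosl2, in 7 of the 8 fits without 1 library, with a replicate block (5 lower), with the length trend removed (6 lower) and with no filter (5 lower). The counts were 1 higher and 1 lower with Myl7 as a covariate or without 0h replicate 1, and without 3h replicates 2 and 3 it was 1 higher and 0 lower. The zinc-finger factors Egr1, Egr2 and Egr3 fell. Egr1 measured 77.1, 21.4, 60.1 and 40.9 TPM at 0h and 13.2, 8.04, 7.98 and 9.52 TPM at 3h (log2 fold change -2.15 with an SE of 0.34, adjusted p = 0.00421), and the spread was wide at 0h and narrow at 3h. Egr3 measured 2.66, 0.954, 1.37 and 1.72 TPM at 0h and 0.196, 0.365, 0.208 and 0.211 TPM at 3h (log2 fold change -2.60 with an SE of 0.56, adjusted p = 0.00996). Egr2 had a fitted log2 fold change of -1.84 (adjusted p = 0.00926), and Egr2 and Egr3 were not called without 0h replicate 1 (0.0538 and 0.0586). Jun, the core AP-1 subunit, fell from 97.8, 90.3, 105 and 69.7 TPM to 35.1, 40.6, 53.9 and 52.6 TPM (log2 fold change -0.81, adjusted p = 0.0189, and up to 0.0714 in 4 fits without 1 library). The AP-1 partner Fosl2 was higher and Jun lower in the same libraries. Egr1 was not called without 3h replicates 2 and 3 (adjusted p = 0.0507). With Myl7 as a covariate Egr1 was called (adjusted p = 0.028), and Egr2, Egr3 and Jun were not (0.0708, 0.0626 and 0.0703).

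Clock genes were close to the background. Of 24 tested, 1 was higher (4.17%) and 0 lower, with a median of 0.06. Ciart, a repressor of the clock activators, measured 5.41, 5.58, 11.5 and 7.995 TPM at 0h and 12.6, 12.8, 17.3 and 22.2 TPM at 3h. The groups did not overlap, but the margin was narrow (log2 fold change 1.30 with an SE of 0.36, adjusted p = 0.0475), and 7 of the fits without 1 library lost the call (up to 0.154). Its promoter, on the minus strand of chromosome 3 at chr3:95882179-95882478, is shown because it holds 3 copies of the E-box CACGTG that clock activators bind, in capitals.
Ciart: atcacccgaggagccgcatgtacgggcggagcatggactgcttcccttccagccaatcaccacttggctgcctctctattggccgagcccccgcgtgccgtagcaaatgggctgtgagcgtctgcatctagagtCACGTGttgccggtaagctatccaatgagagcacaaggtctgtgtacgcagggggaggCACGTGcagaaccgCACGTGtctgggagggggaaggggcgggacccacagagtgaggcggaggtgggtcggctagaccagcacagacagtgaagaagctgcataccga
An E-box was present in 11.4% of the 10895 windows, in 13.4% of those of genes called higher and in 11.5% of those called lower.

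Sensors and brakes of innate immunity were among the genes that rose. Of 39 genes of the Toll-like receptor and NF-kappa-B pathways, 6 were higher (15.4%) and 0 lower, with a median of 0.02. The count was 2 to 4 without 1 library, 1 with Myl7 as a covariate and 2 without 3h replicates 2 and 3. Casp4, the caspase that senses bacterial lipopolysaccharide inside the cell, measured 4.51, 4.10, 4.07 and 3.37 TPM at 0h and 11.9, 9.20, 8.98 and 8.67 TPM at 3h, without overlap (log2 fold change 1.46 with an SE of 0.24, adjusted p = 0.00158). Birc3, an inhibitor of apoptosis, measured 7.94 to 12.9 TPM at 0h and 13.5 to 17.0 TPM at 3h (log2 fold change 0.80 with an SE of 0.17, adjusted p = 0.0099), with a gap of less than 1 TPM between the groups, and was not called with Myl7 as a covariate (0.0525). Weaker calls were those of the NF-kappa-B regulator Nfkbiz (log2 fold change 0.84, adjusted p = 0.018), the lipopolysaccharide receptor Cd14 (0.90, 0.0258), the RNA sensor Tlr7 (0.77, 0.028) and the kinase-like inhibitor Irak3 (0.61, 0.0327). Leaving out 1 library ended these calls in 4, 5, 7 and 7 of the 8 fits, with adjusted p up to 0.0835, 0.11, 0.0917 and 0.1. Ptgs2, the inducible cyclooxygenase, measured 1.14, 0.988, 0.494 and 1.08 TPM at 0h and 2.01, 2.18, 3.27 and 1.28 TPM at 3h (log2 fold change 1.38, adjusted p = 0.0201, and up to 0.074 in 4 fits without 1 library), and was not called with Myl7 as a covariate (0.146). Among 27 chemokines edgeR called 0 higher and 1 lower (3.7%, against 3.3% of all genes). Of the 27, 6 had an unadjusted p under 0.05, a share close to that of all genes (3824 of 16866). The gene called was Cxcl12 (log2 fold change -0.56, adjusted p = 0.0475), lost in all 8 fits without 1 library (up to 0.144), and DESeq2 called 1 higher and 2 lower.

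Genes that answer cell stress and damage also moved. Of 35 p53 targets, GADD45 genes and inhibitors of cyclin-dependent kinases, 5 were higher (14.3%) and 2 lower. The counts were 2 higher and 1 lower with Myl7 as a covariate or without 3h replicates 2 and 3, and without 1 library 1 to 4 were higher, fewest without 0h replicate 1. Gadd45b measured 16.2, 20.5, 12.8 and 12.8 TPM at 0h and 25.4, 40.5, 41.6 and 32.9 TPM at 3h (log2 fold change 1.34 with an SE of 0.31, adjusted p = 0.0216, and up to 0.0746 in 5 fits without 1 library). The death receptor Fas rose from 35.1, 34.3, 40.1 and 22.3 TPM to 68.1, 72.6, 63.8 and 54.2 TPM (log2 fold change 1.16 with an SE of 0.26, adjusted p = 0.0177), a call lost without 0h replicate 1 (0.0608) or 3h replicate 1 (0.0601). For both genes the lowest library at 3h was above the highest at 0h. Plk2, a polo-like kinase and p53 target, fell from 30.5, 24.3, 23.9 and 33.01 TPM to 13.03, 14.3, 18.04 and 12.4 TPM (log2 fold change -0.77 with an SE of 0.14, adjusted p = 0.00293). Of 46 genes of the cell cycle, 0 were called by edgeR, with 5 at an unadjusted p under 0.05 (against 3824 of all 16866 genes). Yet 33 of the 46 had a negative fold change, and the list median was -0.28 (-0.42 to -0.22 under other scalings). With the filter at a mean of 2 TPM the median was -0.07 over 20 genes. The summed level of the list was 353 to 396 TPM at 0h and 285 to 322 TPM at 3h, without overlap.

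Neutrophil genes were among those that rose, and genes of macrophages moved in both directions. Of 23 neutrophil genes tested, out of 44 listed, 12 were higher (52.2%) and 0 lower. Their median log2 fold change was 1.98 (0.82 to 2.0 under other scalings), or 1.70 with 3 genes counted as 0 at 0h set at their bound. Here too, members near 0 at 0h pass the filter on mean level through the libraries in which they are high. This can raise both the share and the median. S100a9, a calcium-binding protein stored in neutrophils, measured 6.21, 4.34, 2.89 and 4.41 TPM at 0h and 356, 113, 80.8 and 92.5 TPM at 3h. S100a8, its partner, measured 0.719, 2.79, 4.89 and 1.89 TPM at 0h and 131, 49.6, 44.9 and 37.9 TPM at 3h. Replicate 1 stood apart at 3h for both genes, and the other 3 libraries at 3h also lay far above those at 0h (adjusted p = 0.0126 for S100a9 and 0.0157 for S100a8, and 0.0504 and 0.0686 without 0h replicate 1). S100a8 was not called with Myl7 as a covariate (0.0565). Without 3h replicates 2 and 3, 9 of the 23 were higher, and with Myl7 as a covariate 5. Leaving out 1 library gave 3 without 0h replicate 1, 6 without 0h replicate 2 or 3h replicate 1, and 8 to 10 otherwise. Ccr1, a chemokine receptor of neutrophils and monocytes, measured 1.59, 2.05, 3.06 and 3.83 TPM at 0h and 12.4, 9.999, 8.85 and 5.90 TPM at 3h, without overlap (log2 fold change 2.04 with an SE of 0.32, adjusted p = 0.00155). Of 24 monocyte genes 2 were higher (8.33%) and 1 lower, and their summed level overlapped between the groups, at 1102 to 1434 TPM at 0h and 1124 to 1401 TPM at 3h. Ms4a6c, a membrane protein of monocytes, rose from 17.2, 17.8, 20.6 and 14.4 TPM to 45.7, 37.1, 43.4 and 40.4 TPM (log2 fold change 1.45 with an SE of 0.26, adjusted p = 0.00481).

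Of 35 genes of resident macrophages, 4 were higher (11.4%) and 2 lower, or 2 higher and 1 lower with Myl7 as a covariate, without 3h replicates 2 and 3 and in 6 of the fits without 1 library. Fcgr3, a receptor for antibody complexes, rose from 57.5, 65.9, 61.7 and 50.2 TPM to 118, 100.3, 102 and 85.9 TPM, without overlap (log2 fold change 0.98 with an SE of 0.18, adjusted p = 0.0054). The complement genes C1qa and C1qb had fitted log2 fold changes of 0.51 and 0.57 (adjusted p = 0.0321 and 0.0365, each lost in 7 of the fits without 1 library, up to 0.153 and 0.152). C3ar1, the receptor for complement C3a, went the other way, from 9.62, 10.7, 11.9 and 10.2 TPM to 3.82, 3.51, 3.76 and 3.81 TPM. The 4 libraries at 3h were nearly equal (log2 fold change -1.32 with an SE of 0.26, adjusted p = 0.00644), although without 3h replicates 2 and 3 the adjusted p was 0.0668. Cd55, which protects cells from complement, fell from 20.4, 15.9, 16.2 and 15.5 TPM to 9.33, 8.16, 8.13 and 7.39 TPM (log2 fold change -0.85 with an SE of 0.14, adjusted p = 0.00243). The fractalkine receptor Cx3cr1, which marks resident macrophages and patrolling monocytes, measured 5.32 to 7.44 TPM at 0h and 0.964 to 1.84 TPM at 3h, a call (adjusted p = 0.0356) that was lost in all 8 fits without 1 library (up to 0.111). Igf1, a growth factor made by macrophages and fibroblasts, had a fitted log2 fold change of -0.61 (adjusted p = 0.0102, and 0.0779 with the length trend removed). Among 19 genes of T, B and NK cells 0 were called by edgeR, with 3 at an unadjusted p under 0.05 (against 3824 of all 16866 genes). Their summed level was 44.9 to 61.0 TPM at 0h and 44.0 to 95.4 TPM at 3h.

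Among genes of endothelial identity more fell than rose. Of 51 tested, 12 were lower (23.5%, against 3.3% of all genes) and 4 higher, and the list median was -0.34 (-0.53 to -0.32 under other scalings). The counts were 4 lower and 1 higher with Myl7 as a covariate, without 3h replicates 2 and 3 it was 4 and 2, without 0h replicate 1 or 3h replicate 1 it was 5 and 2, and without 3h replicate 4 it was 7 and 2. Sox7, a transcription factor of vessel formation, measured 36.5, 29.7, 34.9 and 29.5 TPM at 0h and 7.95, 13.9, 13.1 and 11.4 TPM at 3h. The highest library at 3h was below the lowest at 0h by more than 15 TPM (log2 fold change -1.32 with an SE of 0.21, adjusted p = 0.00243). Meox2, a homeobox factor of the capillaries of heart muscle, fell from 35.5, 27.8, 24.1 and 27.4 TPM to 6.72, 11.9, 10.6 and 11.7 TPM (log2 fold change -1.32 with an SE of 0.23, adjusted p = 0.0031). Kdr, the main signalling receptor for VEGF, fell from 90.7, 66.8, 72.5 and 65.4 TPM to 18.4, 32.2, 29.7 and 29.5 TPM (log2 fold change -1.25 with an SE of 0.26, adjusted p = 0.0133). For all 3 genes, 3h replicate 1 was lowest. Angpt2, a ligand that loosens vessel walls, fell from 4.10 to 5.27 TPM at 0h to 0.938 to 2.07 TPM at 3h (log2 fold change -1.55 with an SE of 0.28, adjusted p = 0.00318). Unc5b, a guidance receptor of endothelium, fell from 11.6 to 18.1 TPM to 3.96 to 5.77 TPM (log2 fold change -1.44 with an SE of 0.25, adjusted p = 0.00443). Pcdh12, an endothelial cadherin, had a fitted log2 fold change of -1.64 (adjusted p = 0.0124, and 0.0505 without 3h replicate 1).

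The endothelial genes that rose included surface proteins of the Ly6 family, which are close copies and may share reads. Ly6c1 measured 250.6, 256, 341 and 209 TPM at 0h and 420.2, 413, 437 and 439 TPM at 3h (log2 fold change 0.88 with an SE of 0.16, adjusted p = 0.00335), and Ly6a had a fitted log2 fold change of 0.66 (adjusted p = 0.0106). The summed level of the list overlapped between the groups, at 5076 to 6507 TPM at 0h and 5393 to 6406 TPM at 3h. Selp, the adhesion molecule P-selectin that catches leukocytes, measured 0.226, 0.220, 0.171 and 0.223 TPM at 0h and 1.05, 0.802, 1.25 and 0.280 TPM at 3h, with replicate 4 close to the level at 0h (adjusted p = 0.024, and up to 0.0858 in 6 fits without 1 library). Kdr and Pcdh12 were not called with Myl7 as a covariate (adjusted p = 0.0728 and 0.0758) or without 3h replicates 2 and 3 (0.0589 and 0.0672), and Ly6a was not called with the covariate (0.0714) or by limma on log2(TPM + 1) (0.0546). Sox7, Meox2, Angpt2, Unc5b and Ly6c1 were called in both of those fits.

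The Notch pathway, through which neighbouring endothelial cells set arterial and tip-cell fates, held falling genes at several steps. Of 25 genes tested, 8 were lower (32%) and 0 higher, with a median of -0.30. Heyl, a transcriptional target, measured 30.6, 20.6, 21.5 and 18.5 TPM at 0h and 8.23, 7.81, 8.31 and 7.93 TPM at 3h. The levels at 3h were almost the same in the 4 libraries (log2 fold change -1.31 with an SE of 0.18, adjusted p = 0.000963). Nrarp, a feedback inhibitor and target, fell from 23.4, 16.3, 18.7 and 16.8 TPM to 5.03, 8.73, 9.36 and 7.43 TPM (log2 fold change -1.13 with an SE of 0.22, adjusted p = 0.00596). The coactivator Maml3 had a fitted log2 fold change of -0.99 (adjusted p = 0.00481), the ligand Dll4 one of -0.61 (0.0108) and the receptor Notch1 one of -0.61 (0.0106). Dll4 was not called without 0h replicate 1 or 3h replicate 1 (up to 0.0643), nor Notch1 without 0h replicate 1 (0.0533). The target Hey1 had a fitted log2 fold change of -0.84 (adjusted p = 0.0177, and up to 0.0713 in 3 fits without 1 library). The summed level of the list was 405 to 533 TPM at 0h and 311 to 374 TPM at 3h, without overlap. With Myl7 as a covariate 3 of the 25 were lower, and without 3h replicates 2 and 3 it was 5, with Maml3 not among them (adjusted p = 0.0575). Without 0h replicate 1, 3h replicate 1 or 3h replicate 4 the count was 3, 4 and 5.

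**Figure D5:**
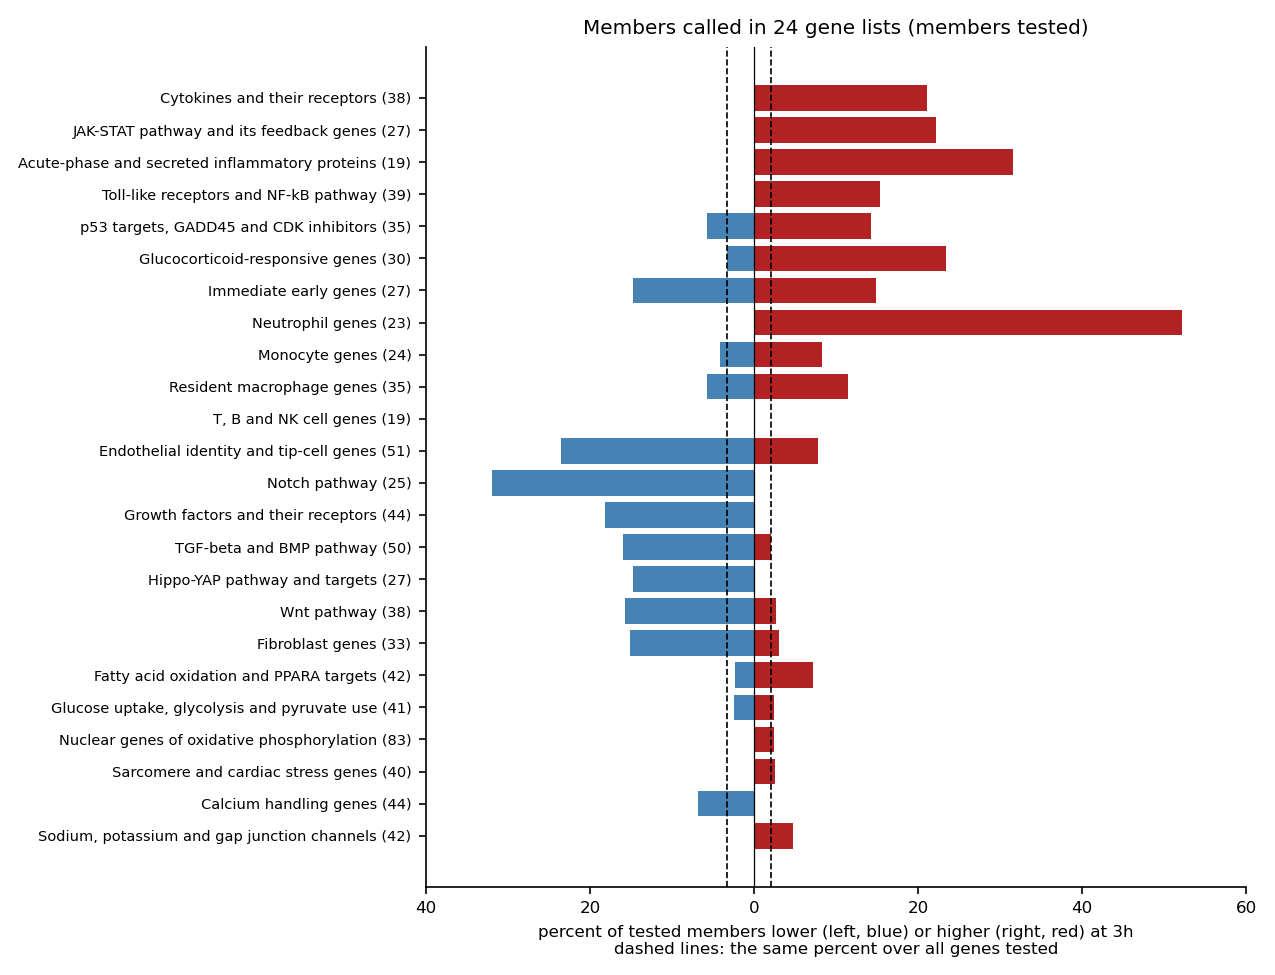
For 24 gene lists the bars give the percent of tested members called higher (right, red) or lower (left, blue) at 3h, with the number tested in brackets. The dashed lines mark the same percent over all genes, 2.01% higher and 3.3% lower. Neutrophil genes reach 52.2% higher and Notch pathway genes 32% lower.

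Among growth factors and their receptors, 8 of 44 were lower (18.2%) and 0 higher. Besides Kdr and Angpt2, these included the VEGF coreceptors Nrp1 (log2 fold change -0.93, adjusted p = 0.0153) and Nrp2 (-0.89, 0.0142), the lymphatic growth factor Vegfc (-0.92, 0.0346) and the EGF-family ligand Btc (-1.20, 0.0328). Leaving out 1 library ended the calls of Nrp1 and Nrp2 in 3 fits (adjusted p up to 0.0601 and 0.0575) and those of Vegfc and Btc in 6 (up to 0.162 and 0.144). With Myl7 as a covariate, or without 3h replicates 2 and 3, 1 of the 44 was lower, and leaving out 1 library gave 2 (without 0h replicate 1 or 3h replicate 1) to 6.

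In the TGF-beta and BMP pathway, 8 of 50 genes were lower (16%, against 3.3% of all genes) and 1 was higher. The lower count was 3 with Myl7 as a covariate, 4 without 0h replicate 1 or 3h replicate 1, and 5 without 3h replicate 2, 3h replicate 4 or 3h replicates 2 and 3. The gene that rose was a ligand. Bmp4, a bone morphogenetic protein, measured 15.6, 14.5, 17.6 and 11.99 TPM at 0h and 31.9, 28.2, 23.7 and 26.3 TPM at 3h, without overlap (log2 fold change 1.08 with an SE of 0.17, adjusted p = 0.00155). Receptors were among those that fell: Bmpr2, the BMP receptor of vessels, measured 23.8 to 28.6 TPM at 0h and 13.1 to 19.8 TPM at 3h (log2 fold change -0.52 with an SE of 0.11, adjusted p = 0.00971), and Acvr2a had a fitted log2 fold change of -0.65 (adjusted p = 0.0115, and 0.0536 without 3h replicate 1). Inhibitors fell too. Smad7, the inhibitory SMAD, fell from 19.9, 19.4, 17.2 and 14.3 TPM to 7.40, 8.05, 9.67 and 7.12 TPM (log2 fold change -0.95 with an SE of 0.19, adjusted p = 0.00754). Skil, a corepressor of SMAD complexes, fell from 13.5, 13.6, 14.9 and 12.04 TPM to 7.14, 7.94, 8.20 and 6.64 TPM (log2 fold change -0.67 with an SE of 0.11, adjusted p = 0.00155). Fstl1, a secreted binding protein, had a fitted log2 fold change of -0.62 (adjusted p = 0.0157, and up to 0.0656 without 0h replicate 1 or 3h replicate 2). Bmpr2 was not called with the length trend removed (adjusted p = 0.193), and Smad7 and Acvr2a not with Myl7 as a covariate (0.0568 and 0.0659).

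Some of the largest falls in TPM are given one by one. Myadm, a membrane protein that organises lipid rafts, fell from 159, 114, 124 and 116 TPM to 58.0, 69.6, 75.7 and 73.5 TPM, without overlap (log2 fold change -0.70 with an SE of 0.15, adjusted p = 0.00971), but was not called with Myl7 as a covariate (0.0626) or without 3h replicates 2 and 3 (0.0655). Cavin2, a coat protein of caveolae, fell from 313, 241, 220.2 and 228 TPM to 126, 155, 172 and 143 TPM (log2 fold change -0.57 with an SE of 0.14, adjusted p = 0.0198, and up to 0.0944 in 3 fits without 1 library). Cav1, the main protein of caveolae, and Actb, a cytoplasmic actin with many pseudogene copies, had fitted log2 fold changes of -0.51 and -0.61 (adjusted p = 0.0457 and 0.0343). In both, the groups did not overlap, but 8 and 6 of the fits without 1 library lost the calls (up to 0.153 and 0.131).

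The smallest p-values among falling genes belonged to Eeig1, Kif26a and Heyl. Eeig1, a gene that oestrogen induces, measured 13.2, 10.98, 10.1 and 10.7 TPM at 0h and 3.47, 4.03, 4.18 and 4.08 TPM at 3h (log2 fold change -1.33 with an SE of 0.15, adjusted p = 9.26e-05). Kif26a, an atypical kinesin, fell from 24.5, 17.8, 17.4 and 19.4 TPM to 7.29, 8.84, 7.60 and 6.75 TPM (log2 fold change -1.19 with an SE of 0.15, adjusted p = 0.000306). In each, the 0h and 3h libraries formed separate tight groups. Otud1, a deubiquitinase, fell from 27.6, 28.5, 29.7 and 25.5 TPM to 9.67, 11.9, 14.3 and 15.8 TPM (log2 fold change -0.93 with an SE of 0.15, adjusted p = 0.00178). Hic1, a transcriptional repressor that marks quiescent mesenchymal cells, fell from 20.1, 22.3, 15.3 and 23.05 TPM to 2.99, 7.01, 6.66 and 4.03 TPM (log2 fold change -1.80 with an SE of 0.30, adjusted p = 0.00377). Zeb2, a repressor of epithelial genes, and Cbfa2t3, a corepressor of blood and endothelial cells, had fitted log2 fold changes of -0.75 (adjusted p = 0.00155) and -0.80 (0.00147). All 6 were called with Myl7 as a covariate and without 3h replicates 2 and 3.

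The transcription factors Tbx20 and Mef2c were lower while most sarcomere genes were not called. Tbx20, a T-box factor needed by adult heart muscle, measured 29.0, 29.1, 30.6 and 28.4 TPM at 0h and 12.4 to 15.9 TPM at 3h. The 4 values at 0h lay within 3 TPM of each other and far above those at 3h (log2 fold change -0.89 with an SE of 0.14, adjusted p = 0.00133). Mef2c, a MADS-box factor of muscle genes, fell from 15.1 to 17.1 TPM to 8.82 to 11.3 TPM (log2 fold change -0.54 with an SE of 0.09, adjusted p = 0.00245), but was not called with the length trend removed (0.134). Of 40 sarcomere and stress genes, 1 was higher (2.5%, against 2.01% of all genes) and 0 lower. That gene was Tcap, the titin cap, at 4551, 4961, 5364 and 4649 TPM at 0h and 6110.2, 6735, 6753 and 7555 TPM at 3h (log2 fold change 0.66 with an SE of 0.16, adjusted p = 0.0212, and up to 0.0856 in 5 fits without 1 library). Of 44 calcium-handling genes, 3 were lower (6.82%, against 3.3% of all genes): Mef2c, the inositol trisphosphate receptor Itpr1 (log2 fold change -0.56, adjusted p = 0.0161) and the calcineurin target Nfatc1 (-0.55, 0.0288), the last 2 lost in 4 and 6 fits without 1 library (up to 0.0721 and 0.117). With the length trend removed 0 of the 44 were lower, and the list median of -0.03 became 0.05. The median length of these genes was 7202 bases. Among 42 channel genes 2 were higher (4.76%, against 2.01% of all genes) and 0 lower. Kcnh2, which carries the rapid delayed rectifier current, measured 39.1, 40.6, 45.9 and 45.0 TPM at 0h and 50.5, 59.3, 62.2 and 60.3 TPM at 3h (log2 fold change 0.62 with an SE of 0.13, adjusted p = 0.00914), but was not called without 3h replicates 2 and 3 (0.0574) or by limma on log2(TPM + 1) (0.119). Kcne1, a subunit of the slow rectifier, had a fitted log2 fold change of 0.88 (adjusted p = 0.0316, and up to 0.132 in 7 fits without 1 library).

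A few control points of metabolism moved while most pathway members were not called. Pfkfb3, the enzyme that makes the activator of phosphofructokinase and so speeds glycolysis, measured 5.21, 4.49, 5.59 and 4.74 TPM at 0h and 17.8, 14.6, 16.7 and 12.7 TPM at 3h. All 4 libraries at 3h were more than double any at 0h (log2 fold change 1.82 with an SE of 0.26, adjusted p = 0.00147). Pfkfb3 was the gene called higher among 41 of glucose use (2.44%, against 2.01% of all genes). The 1 called lower (2.44%, against 3.3%) was the pyruvate dehydrogenase phosphatase Pdp1 (log2 fold change -0.45, adjusted p = 0.0377, lost in all 8 fits without 1 library, up to 0.115). Plin4, a droplet coat protein, measured 106, 110, 125 and 85.5 TPM at 0h and 154, 180, 192 and 175 TPM at 3h (log2 fold change 0.90 with an SE of 0.17, adjusted p = 0.00481), and Lipe, hormone-sensitive lipase, rose from 24.9 to 42.8 TPM to 46.5 to 53.2 TPM (log2 fold change 0.71 with an SE of 0.14, adjusted p = 0.00622, and 0.0535 by limma on log2(TPM + 1)). Thrsp, a regulator of lipid synthesis, rose from 55.3, 57.6, 76.8 and 45.2 TPM to 104, 105, 106 and 90.3 TPM (log2 fold change 0.98 with an SE of 0.20, adjusted p = 0.00959), a call lost without 3h replicates 2 and 3 (0.0543). Of 16 tested adipocyte genes 3 were higher (18.8%, against 2.01% of all genes), namely these 3 genes, and 0 lower. The summed level of that list was 903 to 1173 TPM at 0h and 1147 to 1246 TPM at 3h. The defining adipocyte marker Adipoq measured 0.234 to 3.97 TPM at 0h and 0 to 0.443 TPM at 3h. Ppargc1b, a coactivator of mitochondrial genes, fell from 17.9 to 22.2 TPM to 6.21 to 8.58 TPM (log2 fold change -1.23, adjusted p = 0.0251, and up to 0.0861 in 7 fits without 1 library). Of 83 nuclear genes of oxidative phosphorylation, which encode subunits of the respiratory chain and ATP synthase, 2 were called higher (2.41%, against 2.01% of all genes) and 0 lower. Yet 82 of the 83 had a positive fold change. The list median was 0.36 (0.18 to 0.39 under other scalings, against 0.004 over all genes). An unadjusted edgeR p under 0.05 was reached by 63 of the 83, against 3824 of all 16866 genes. The summed level of the list was 117676, 128022, 118117 and 130550 TPM at 0h and 151664, 138233, 133708 and 140300 TPM at 3h, without overlap. The count of calls rested on the fit: DESeq2 called 25 higher, voom with array weights 47 and edgeR on the compared groups alone 62, while 0 or 1 were called without 1 library and 0 with Myl7 as a covariate, without 3h replicates 2 and 3 or with the length trend removed. These genes are short, with a median length of 1569 bases, and the list median was 0.21 with that trend removed. The shift was not particular to this list. Of 78 genes of mitochondrial ribosomal proteins 77 had a positive fold change (median 0.26), and 43 had an unadjusted edgeR p under 0.05. Of 38 proteasome genes 35 had a positive fold change (median 0.22). With the length trend removed these 2 medians were 0.19 and 0.16. Herpud1, a component of the degradation machinery of the endoplasmic reticulum, was the member called of 30 unfolded protein response genes (3.33% higher, against 2.01% of all genes). It measured 259, 243.5, 337 and 228 TPM at 0h and 430, 491, 478 and 500.1 TPM at 3h (log2 fold change 1.02 with an SE of 0.21, adjusted p = 0.0106). Herpud1 was not called with Myl7 as a covariate (adjusted p = 0.0587) or without 3h replicates 2 and 3 (0.054).

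The direct comparison of 24h with 3h, which shares the 3h libraries, called 1313 of the 16866 genes (7.78%), 689 higher (4.09%) and 624 lower (3.7%) at 24h. Several genes high at 3h were lower at 24h. Il4ra averaged 37.2 TPM at 3h, 16.7 at 24h and 12.1 at 7d (24h minus 3h, log2 fold change -1.12, adjusted p = 0.00256). Sbno2 averaged 16.7 TPM at 3h, 8.40 at 24h and 5.54 at 7d (-0.98, adjusted p = 0.00115), and Pfkfb3 15.5, 6.02 and 4.78 TPM (-1.33, adjusted p = 0.00379). Bmp4 averaged 27.5, 12.7 and 12.97 TPM (-1.07, adjusted p = 0.000487), and Casp4 9.69, 4.40 and 4.58 TPM (-1.13, adjusted p = 0.0039). Lcn2 was higher at 24h than at 3h and averaged 10.7 TPM at 3h and 56.3 TPM at 24h (log2 fold change 2.45, adjusted p = 0.00203). Lrg1 averaged 169 and 298 TPM (0.87, adjusted p = 0.0196) and Serpina3n 97.7 and 185 TPM (0.96, adjusted p = 0.0485). By 7d these 3 averaged 5.56, 112 and 28.5 TPM. Of these 8 genes, the calls of Lrg1 and Serpina3n at 24h were lost in 5 and 7 of the fits without 1 library (adjusted p up to 0.0786 and 0.122), and neither was called with Myl7 as a covariate (0.161 and 0.311) or without 3h replicates 2 and 3 (0.17 and 0.235).

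Among the genes that fell at 3h, some were higher again at 24h and others were not called in the direct comparison. Meox2 averaged 10.2 TPM at 3h, 23.9 at 24h and 27.0 at 7d (24h minus 3h, log2 fold change 1.27, adjusted p = 0.00168). Otud1 (log2 fold change 1.10, adjusted p = 0.000114), Hic1 (1.67, 0.00292), Heyl (0.95, 0.00314) and Tbx20 (0.56, 0.0137) were higher at 24h as well. Heyl and Tbx20 were not called there without 3h replicates 2 and 3 (adjusted p = 0.0701 and 0.0789), nor Tbx20 by limma on log2(TPM + 1) (0.145) or with the compared groups alone (0.0584). For Kdr the means were 27.5 TPM at 3h and 33.6 TPM at 24h (log2 fold change 0.32, adjusted p = 0.521), and for Egr1 they were 9.68 and 8.28 TPM (-0.22, adjusted p = 0.784). Nr3c1 averaged 30.1, 34.4 and 48.9 TPM at 3h, 24h and 7d (0.21, adjusted p = 0.345). The plot of levels by library shows that the libraries at 24h were spread more widely than those at 3h for Tbx20 and Nr3c1.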

How the data were processed

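Left ventricle RNA was extracted with TRIzol and sequenced from a directional polyA library, per the labels' protocols. The submitters' processing notes name cutadapt, STAR and the build mm10. How reads were counted per gene, and with which strand setting, is not stated there or in the labels, so antisense, overlapping and near-identical genes are uncertain. The authors deposited 1 table of raw counts, TPM and FPKM per library, with a gene length (57143 genes). FPKM values were deposited too and were not used here. Columns were matched to samples by the time and number in their names.

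The filter kept genes whose TPM averaged at least 0.5 over the 16 libraries, and the deposited counts were tested, scaled by TMM, with edgeR 4.0.16 (glmQLFit and glmQLFTest, robust, 16 libraries in 1 fit, R 4.3.3). P-values were adjusted by Benjamini-Hochberg over all genes tested, with a threshold of 0.05, and SE is the log2 fold change over the root of F. Alternatives used DESeq2 1.42.0 and limma 3.58.1. The tests were checked on simulated counts.

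The comparison, the 67 gene lists and the rule for named genes were chosen with earlier results of these data known. Among called genes without overlap of the groups' TPM and with a mean of at least 2 TPM, the rule took the 10 of smallest p, the 10 of largest fold and the 6 of largest TPM difference in each direction. It added up to 6 called members of each list and S100a8 and S100a9. Not all genes that meet it are printed. Promoters and motifs were read from RefSeq windows; other motifs searched were the D-box, ROR element, cyclic AMP element and kappa-B site, present in 0.945%, 0.0551%, 3.34% and 0.34% of windows, in 1.18%, 0%, 1.57% and 0% of those of genes called higher and in 0%, 0%, 1.79% and 1.02% of those called lower.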

Additional observations from a re-analysis of the deposited data

Results flagged for a closer look

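For 109 genes, the TPM values of the 4 libraries at 0h and of the 4 at 3h were checked for a library far from the other 3, by the ratio of its gap to the range (above the critical value of Dixon's test for 4 values). Of 218 groups 9 (4.13%) had such a library, and chance gives about 1 in 20. In 3h replicate 1, S100a9 was highest at 356 TPM (next 113.5 TPM), S100a8 at 130.5 TPM (next 49.6 TPM) and Casp4 at 11.9 TPM (next 9.20 TPM), and Nfatc1 was lowest at 4.86 TPM (next 6.88 TPM). In 3h replicate 2, Egr3 was highest at 0.365 TPM and Fstl1 lowest at 51.8 TPM. Thrsp was lowest in 3h replicate 4 at 90.3 TPM. At 0h, Selp was lowest in replicate 3 at 0.171 TPM and Cd55 highest in replicate 1 at 20.4 TPM.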

How the results depend on the processing

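The count of genes changed from 0h to 3h, 895, was 3191 with the compared groups alone, 2606 by voom with array weights, 184 with Myl7 as a covariate and 336 without 3h replicates 2 and 3, an alternative chosen after seeing the data. It ran from 298 to 592 when 1 library was left out. From 3h to 24h the count, 1313, was 835 with the compared groups alone, 552 with the covariate and 334 without 3h replicates 2 and 3, and ran from 755 to 1684 with 1 library left out. The cause of these shifts was not tested. Under the other scalings, filters and tools, both counts stayed within 1.5 times. The share of the 3h calls that were higher was 37.9%, 24.4% with library totals only, 16.8% by limma on log2(TPM + 1) and 50.5% with the length trend removed. The labels do not say whether replicate numbers pair the samples. Deviations of same-numbered 0h and 3h libraries correlated at -0.008, -0.019, 0.052 and 0.037, and those of differently numbered ones at -0.051 to 0.029. Values this close to 0 cannot decide whether the numbers mark a shared day or batch. With a replicate block 636 genes were called at 3h (249 higher, 387 lower) and 1115 at 24h against 3h. Over the genes named, no alternative reversed a direction, and 471 of 2390 refits lost a call. These genes were named because they were called in the same counts, so a kept direction adds no support. With the length trend removed, 20 of the 109 lost their call. Totals of 8.31 to 12.6 M counts leave low genes such as Fgr, with 12 counts over the 0h group, with little precision.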
